A study of Mus musculus with 15 samples.

Results

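The genes examined here encode splicing factors, the proteins that recognise splice sites and exons and build the spliceosome on each pre-mRNA. Their members were chosen by name alone, as every probe set annotated with a single gene whose symbol begins with Srsf, Tra2, Hnrnp, Sf3a, Sf3b, U2af, Snrp, Prpf or Rbm followed by a digit. The rule found 100 genes with 280 probe sets, of 18193 genes and 45037 non-control probe sets in the table. Of those, 219 probe sets of 89 genes could be tested. RNA came from the whole blood of 15 mice, 1 array per mouse, and the mice formed 3 groups of 5. A first group received vehicle only, the second received ABBV-075 at 1 mg/kg and the third received ABBV-075 at 5 mg/kg, all for 6 h before blood was taken. The labels used here name no strain, age or sex and no genotype, transgene or deletion. ABBV-075, also called mivebresib, is a small molecule that occupies the bromodomains of the BET proteins, which bind acetylated histones and help RNA polymerase II to elongate.

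Splicing factors act in layers. The SR and TRA2 proteins mostly bind exonic enhancers and favour inclusion of the exon, hnRNP proteins often oppose them, U2AF and the SF3 complexes mark the branch point and the end of the intron, the Sm proteins form the ring around each spliceosomal RNA, and the PRPF proteins take part in assembling and activating the spliceosome. Many genes of the SR, TRA2 and hnRNP families control their own amount by splicing in an exon that destroys the transcript, and several give transcripts with alternative ends. A probe set reads only a short stretch near one annotated transcript end, so the probe sets of a gene can report different transcripts.

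By subfamily, the rule held 12 SR and TRA2 genes with 44 probe sets, 19 hnRNP genes with 58, 12 genes of SF3A, SF3B and U2AF with 33, 9 Snrp genes of the Sm and snRNP proteins with 18, 12 PRPF genes with 32 and 36 numbered RBM genes with 95. The name rule is broader than splicing for the last group, since several RBM proteins act elsewhere in RNA metabolism, and Rbm3os and Rbm46os are named as opposite-strand RNAs. A further 28 probe sets list a gene of the rule together with another gene, such as Snrpn with Snurf or Hnrnpa1 with its pseudogenes, and were left out. Rbm3, Snrpa and Hnrnpa3 occur only in such shared annotations and were not analysed here, and neither was Srsf7. Values are log2 intensities after quantile normalisation, with a floor at an intensity of 16, which is 4 on the log2 scale. A probe set was tested if it lay above the floor on at least 5 of the 15 arrays. Among the tested members, 143 were above the floor on all 15 arrays and 76 on 5 to 14 of them, none in 1 group only. There were 16 tested members with fewer than 5 such arrays outside the 5 mg/kg group, which therefore passed the filter through that group. Likewise 11 had fewer than 5 outside the vehicle group and 9 outside the 1 mg/kg group. A member can count for more than 1 group. The 11 genes without a tested probe set were Prpf3, Prpf40b, Rbm11, Rbm12b1, Rbm15, Rbm19, Rbm20, Rbm3os, Rbm46, Srsf12 and U2af1l4.

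The promoters of the genes on which the results turn are shown first: Tra2a, which held the single probe set that passed the test, its paralogue Tra2b, and Hnrnpa2b1, whose probe sets moved apart. Each is the RefSeq sequence of build GRCm38.p6 from 250 bases before to 50 after the first listed start, read 5′ to 3′ on the minus strand. Capitals mark the CRE half-site TGACG or its reverse complement CGTCA, the core of the site that CREB-type factors bind.
Tra2a: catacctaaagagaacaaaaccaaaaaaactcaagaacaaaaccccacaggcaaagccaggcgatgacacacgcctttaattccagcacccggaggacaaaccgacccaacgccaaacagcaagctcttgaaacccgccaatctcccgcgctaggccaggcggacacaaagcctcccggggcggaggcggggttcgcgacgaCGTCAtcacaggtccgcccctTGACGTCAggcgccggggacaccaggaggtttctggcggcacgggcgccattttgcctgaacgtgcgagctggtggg
Tra2b: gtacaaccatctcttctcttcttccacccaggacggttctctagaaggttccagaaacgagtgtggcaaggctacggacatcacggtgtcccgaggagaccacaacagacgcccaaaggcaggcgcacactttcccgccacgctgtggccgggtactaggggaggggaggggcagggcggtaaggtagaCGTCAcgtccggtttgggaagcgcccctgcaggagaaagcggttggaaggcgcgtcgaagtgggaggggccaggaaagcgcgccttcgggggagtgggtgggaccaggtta
Hnrnpa2b1: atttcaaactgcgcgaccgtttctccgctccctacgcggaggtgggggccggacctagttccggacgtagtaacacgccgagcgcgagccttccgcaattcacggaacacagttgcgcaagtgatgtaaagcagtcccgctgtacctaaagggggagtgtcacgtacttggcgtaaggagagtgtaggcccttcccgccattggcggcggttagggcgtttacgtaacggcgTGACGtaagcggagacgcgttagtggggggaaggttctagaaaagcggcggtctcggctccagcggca
The Tra2a window lies at chr6:49264003-49264302, the Tra2b window at chr16:22265956-22266255 and the Hnrnpa2b1 window at chr6:51469845-51470144. The half-site matched 3 times in the Tra2a window, where 2 of the matches overlap as the palindrome TGACGTCA, and 1 time each in those of Tra2b and Hnrnpa2b1, for which RefSeq lists 2 starts. At the first listed start, 41 of the 86 members with a sequence (47.7%) held a match on either strand, against 5681 of 27025 genes (21.0%). The GC box GGGCGG was found in 58.1% of members and 35.9% of genes, the CCAAT box CCAAT in 47.7% and 37.9%, the E-box CACGTG in 11.6% and 7.24%, and the TATA box TATAAA in 9.30% and 14.2%. These are counts of letters, chosen after the sequences were seen, and binding was not measured. The comparison set was every gene with a listed promoter, tested here or not, and was not matched to the members.

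At 5 mg/kg, the splicing factor probe sets lay mostly above vehicle, with the SR, TRA2 and hnRNP genes leading, but 1 member of 219 passed the test, a probe set of Tra2a. That probe set exceeded the floor on 3 arrays outside the 5 mg/kg group and entered the test through the group where it is high, so its call supports nothing about the members. The fit was made with limma over all 24273 tested probe sets and all 15 arrays, and a probe set was called at a Benjamini-Hochberg adjusted p under 0.05. Among all tested probe sets, 33 were called (0.136%), 11 higher and 22 lower, and this count was 18, 21 and 19 without vehicle replicate 1, 3 or 4 and 15 without 5 mg/kg replicate 5. Beside that background 1 call in 219 members (0.457%) is a small count. Without adjustment, 35 members were higher at a p under 0.05 (16% of members, against 4.27% of all tested probe sets) and 5 were lower (2.28%, against 3.69%). With 1 array left out the higher members numbered 26 to 45, and the lower ones numbered 3 without vehicle replicate 2. With 1 probe set per gene, 11 of 89 members were higher (12.4%, background 3.51%) and 3 lower (3.37%, background 4.26%). Among the 143 members above the floor on all 15 arrays, which entered through no single group, 27 were higher (18.9%, against 5.11% of all such probe sets). In 11 members every 5 mg/kg array lay above every vehicle array (5.02%, background 1.29%), and in 2 every one lay below (0.913%, background 1.15%). The median log2 fold change of the tested members was 0.13, and that of all tested probe sets was -0.007. Without replicate 4 of the 5 mg/kg group the members' median was 0.07, and with 1 probe set per gene it was 0.05. Members above 0 numbered 142 of 219 (64.8%), against 49.2% of all tested probe sets. Among the 143 members above the floor on all 15 arrays, 95 lay above 0. In whole blood, a change in the mix of cells and a change of RNA per cell cannot be told apart.

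Limma called no member at 1 mg/kg, and 2 probe sets were called in the whole table (0.00824%). That count was 0 in 11 of the 15 fits with 1 array left out, among them each fit without a vehicle array, 1 without replicate 1 of the 1 mg/kg group and 7 without its replicate 2. At an unadjusted p under 0.05, 3 members were higher (background 2.04%) and 5 lower (background 3.77%). The lower count rested on single arrays: it was 14 (6.45%, background 4.82%) without replicate 2 of the 1 mg/kg group, 12 (5.58%, background 4.40%) without its replicate 4 and 10 (4.57%, background 3.53%) without vehicle replicate 5. It was 8 without replicate 3 of the 1 mg/kg group or replicate 2 of the 5 mg/kg group, and 3 without replicate 5 of the 1 mg/kg group. The higher count was 0 without vehicle replicate 3 or 5 and 1 without vehicle replicate 2 or 4 or replicate 1 of the 1 mg/kg group. No member lay wholly above the vehicle arrays (background 0.19%) and 1 lay wholly below them (background 0.676%). The median of the members was -0.11 and that of all tested probe sets -0.020. The members' median was -0.06 without vehicle replicate 2 or without replicate 5 of the 1 mg/kg group, and ran from -0.16 to -0.03 over all alternatives. Among probe sets at least as bright on average as the median member, the medians were -0.095 for members and -0.068 for all. The 2 lay close together at this dose. At 5 mg/kg against vehicle they were 0.165 and -0.023. Both doses are compared with the same vehicle arrays. In the direct comparison of 5 with 1 mg/kg no probe set was called by limma, member or other (0%), although 49 members were higher at an unadjusted p under 0.05 (22.4%, background 6.19%) and 1 was lower (0.457%, background 2.47%). Without replicate 5 of the 5 mg/kg group 32 were higher (14.8%, background 4.47%). Among the 143 members above the floor on all 15 arrays, 37 were higher (25.9%, background 8.52%). In 4 of the 15 fits with 1 array left out, those without replicate 1, 2 or 4 of the 1 mg/kg group or replicate 4 of the 5 mg/kg group, 1 probe set was called, and none was a member. The groups did not overlap for 10 members that were higher at 5 mg/kg (4.57%, background 1.03%) and for no member that was lower (background 0.235%). The median was 0.27 for the members and 0.000 for all tested probe sets. Among the brighter probe sets it was 0.273 and 0.034.

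**Figure D1:**
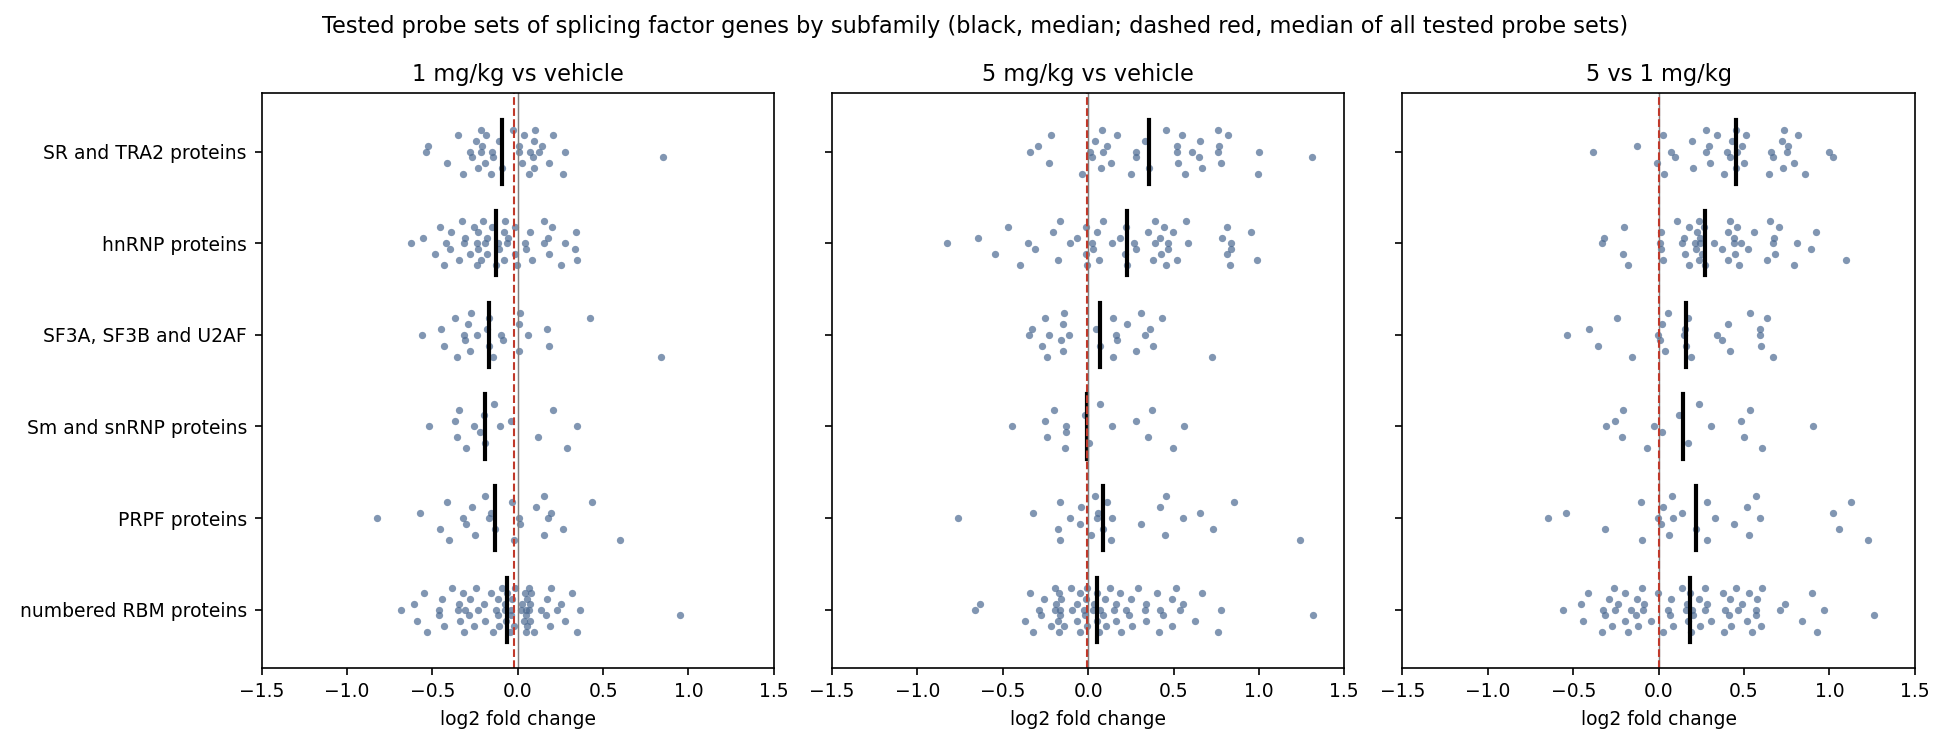
Log2 fold change of each of the 219 tested probe sets of splicing factor genes (x axis) by subfamily (y axis) in the 3 comparisons, with black bars at the subfamily medians and a dashed red line at the median of all tested probe sets. At 5 mg/kg against vehicle the medians are 0.36 for SR and TRA2 genes and 0.23 for hnRNP genes, and those of the other subfamilies lie between -0.007 and 0.09.

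The subfamilies differed in how many members lay above vehicle at 5 mg/kg. The median log2 fold change was 0.36 for SR and TRA2 probe sets (32 of 37 above 0) and 0.23 for hnRNP probe sets (34 of 49). It was 0.09 for PRPF (17 of 25), 0.07 for SF3A, SF3B and U2AF (14 of 25), 0.05 for numbered RBM (37 of 67) and -0.007 for Sm and snRNP probe sets (8 of 16). At an unadjusted p under 0.05, 10 SR and TRA2 probe sets were higher (27.0%) and none lower, and 15 hnRNP probe sets were higher (30.6%) and 3 lower (6.12%), against 4.27% and 3.69% of all tested probe sets. The counts were 4 higher (16%) and 0 lower for PRPF, 6 higher (8.96%) and 2 lower (2.99%) for numbered RBM, and 0 in either direction for the SF3 and U2AF group and for the Sm group. These counts take probe sets of the same gene separately: the 37 SR and TRA2 probe sets come from 11 genes and the 49 hnRNP probe sets from 19. The 10 include more than 1 probe set of Tra2a, among them the one that passed the filter through its high group. With 1 probe set per gene, 11 of 89 members over all subfamilies were higher (12.4%, against 3.51% of all genes). That count is not given by subfamily here. The 6 medians at 1 mg/kg lay between -0.19 and -0.06, and in the comparison of 5 with 1 mg/kg they lay between 0.14 for Sm and 0.45 for SR and TRA2 genes. No test of the difference between subfamilies was made.

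Mean levels per array show the spread behind those medians. For the SR and TRA2 genes the mean log2 intensity was 6.03, 6.39, 5.94, 5.89 and 5.81 on the vehicle arrays, 5.72, 6.18, 5.92, 6.18 and 5.75 at 1 mg/kg, and 6.19, 6.11, 6.53, 6.62 and 6.51 at 5 mg/kg. The groups overlapped, because replicate 2 of the vehicle group was as high as the 5 mg/kg arrays while its 4 companions lay below all of them. For the hnRNP genes the vehicle arrays gave 6.72, 7.06, 6.72, 6.63 and 6.54, the 1 mg/kg arrays 6.58, 6.74, 6.70, 6.82 and 6.25, and the 5 mg/kg arrays 6.82, 6.84, 6.94, 7.15 and 7.01. The same vehicle mouse stood above the rest of its group there. Over all members the array means were 5.91 ± 0.15 (SD, n = 5) in vehicle, 5.81 ± 0.12 in the 1 mg/kg group and 6.08 ± 0.12 in the 5 mg/kg group, against group means of 5.66 to 5.68 for all tested probe sets.

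**Figure D2:**
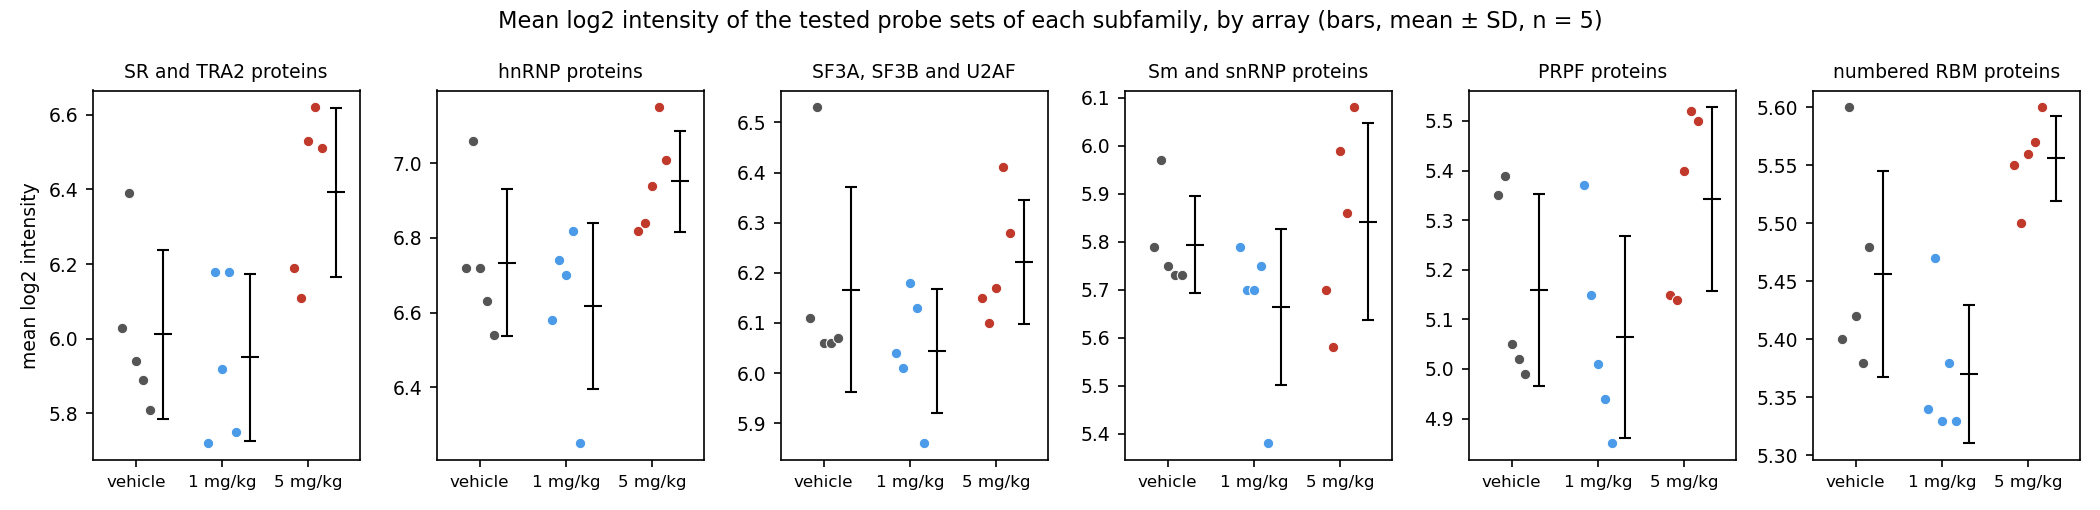
Mean log2 intensity of the tested probe sets of each subfamily on each array (y axis, scaled separately in each panel) for the 3 groups (x axis), with the mean ± SD of 5 arrays beside the points. Replicate 2 of the vehicle group is the highest vehicle array in all 6 panels, at 6.39 for SR and TRA2 genes and 7.06 for hnRNP genes.

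Other measures moved with the groups. The 18S ribosomal RNA control had a log2 signal of 10.24 to 12.31 on the vehicle arrays, 9.58 to 10.70 at 1 mg/kg and 8.83 to 9.88 at 5 mg/kg, so the outer groups did not overlap. The difference between the 3' and 5' beta-actin controls was 0.71 ± 0.18 (SD, n = 5), 0.75 ± 0.22 and 0.61 ± 0.16 in the same order. Cre spike-in intensities were 13509 to 14035 in vehicle, 13620 to 14552 at 1 mg/kg and 12759 to 13291 at 5 mg/kg. Every 5 mg/kg array lay below all others in that control. Of 11 tested monocyte markers, 2 were called lower at 5 mg/kg (background 0.0906%). They were Clec4a3 (log2 fold change -2.25, limma adjusted p 0.00439) and Mpeg1 (-2.22, limma adjusted p 0.0046). At an unadjusted p under 0.05, 9 were lower at 5 mg/kg (background 3.69%) and 8 at 1 mg/kg (background 3.77%), where none was called. The summed intensity of the 11 markers ran from 5936 to 8571 in vehicle, from 3988 to 6920 at 1 mg/kg and from 3344 to 4634 at 5 mg/kg. B cell markers lay above vehicle in 8 of 9 probe sets at 5 mg/kg, with a median of 0.61 and none called, and their sum ran from 1241 to 3063, from 655 to 2397 and from 2155 to 4515. T cell markers (7 of 9 above 0, median 0.26, none called) summed to 1063 to 1641, 720 to 1506 and 1119 to 2346. At 1 mg/kg the medians of the B and T cell markers were -0.31 and -0.23, with 3 and 2 probe sets above 0. The monocyte median was -0.805 there, with 1 above 0, and that of neutrophils -0.675, with 2 above 0. Medians for NK cells, platelets and erythroid cells were -0.63, -0.40 and -0.05 at that dose, with 0, 0 and 2 above 0. Replicate 2 of the vehicle group had the highest B cell and T cell sums of its group (3063 and 1641), as it had the highest splicing factor means. It also had the highest monocyte and neutrophil sums of its group (8571 and 3584), but not the highest NK cell, platelet or erythroid sum. The part of these measures in the results on splicing factors was not tested beyond the alternatives reported for the 18S signal and for arrays left out. The markers of neutrophils (median -0.19), NK cells (-0.44), platelets (-0.22) and erythroid cells (-0.12) had none called at 5 mg/kg, with 8, 7, 9 and 6 of their markers tested, so these blood cell types were detected. The T cell marker Cd4 was not tested. Of 8 eosinophil and basophil markers only 2 were tested, Alox15 (-2.14) and Prg2 (0.17), and neither was called at 5 mg/kg.

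Among the SR and TRA2 genes, Tra2a lay above vehicle in all of its 5 tested probe sets at 5 mg/kg, although 1439043_at was at -0.07 with the 18S signal in the fit. Tra2a encodes transformer-2 alpha, an SR-like protein that binds purine-rich exonic enhancers. Its probe set 1455933_at gave log2 intensities of 4.03, 4.29, 4.00, 4.00 and 4.00 in vehicle, 4.00, 4.00, 4.00, 4.18 and 4.00 at 1 mg/kg, and 4.70, 4.62, 5.19, 5.44 and 5.33 at 5 mg/kg. All 5 mg/kg arrays lay above all others, and in the other groups 2 and 1 arrays exceeded the floor. This probe set is thus one of those that passed the filter on low values through the 5 mg/kg group. By the fitted means it was 1.99-fold higher than vehicle. The floor can make this estimate too small, because 3 of the 5 vehicle arrays stood at it, but the estimate is no bound, since it also carries sampling error. The fitted difference was 0.99 ± 0.18 on the log2 scale (SE), with a limma adjusted p of 0.0447 over all tested probe sets, given as a description since the filter let this probe set in through its high group. The size depends on the floor: with a floor of 8 it was 1.20, and the adjusted p was 0.206.

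A second Tra2a probe set, 1454725_at, was measured above the floor on every array. It gave 5.61, 6.24, 5.50, 5.96 and 5.76 in vehicle, 5.45, 5.96, 6.22, 6.33 and 6.14 at 1 mg/kg, and 6.77, 6.58, 6.93, 6.68 and 7.12 at 5 mg/kg. The 5 mg/kg arrays again lay above all others, with a difference from vehicle of 1.00 ± 0.21 (SE) and a limma adjusted p of 0.0773. It was called with a floor of 32 (adjusted p 0.032), with array weights (0.0238) and without replicate 1 of the 1 mg/kg group (0.0439). The other 3 differed by 0.78 ± 0.29 (1442886_at), 0.55 ± 0.34 (1439043_at) and 1.31 ± 0.64 (1429680_at), and their groups overlapped. The 5 Tra2a probe sets differed from vehicle at 1 mg/kg by -0.03 to 0.85, none called. Leaving out any 1 vehicle array, replicate 2, 3, 4 or 5 of the 1 mg/kg group, or replicate 3, 4 or 5 of the 5 mg/kg group ended the call of 1455933_at, whose limma adjusted p ran from 0.0313 to 0.154 over the 15 such fits with a log2 fold change of 0.87 to 1.08. It also ended in 8 other alternatives given in the closing section.

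Tra2b, the paralogue that binds the same kind of enhancer and has a self-regulating exon, behaved less evenly. Probe set 1419543_a_at gave 6.21, 6.81, 5.87, 5.79 and 5.99 in vehicle, 6.14, 6.32, 5.79, 6.72 and 5.90 at 1 mg/kg, and 6.58, 6.31, 7.08, 7.27 and 7.28 at 5 mg/kg. Replicate 2 of the vehicle group reached into the 5 mg/kg range. That probe set differed by 0.77 ± 0.26 (SE, limma adjusted p 0.369), and 1427432_a_at by 0.76 ± 0.26 (limma adjusted p 0.396). The remaining 2 differed by 0.45 ± 0.30 (1441466_at) and -0.23 ± 0.42 (1446496_at).

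**Figure D3:**
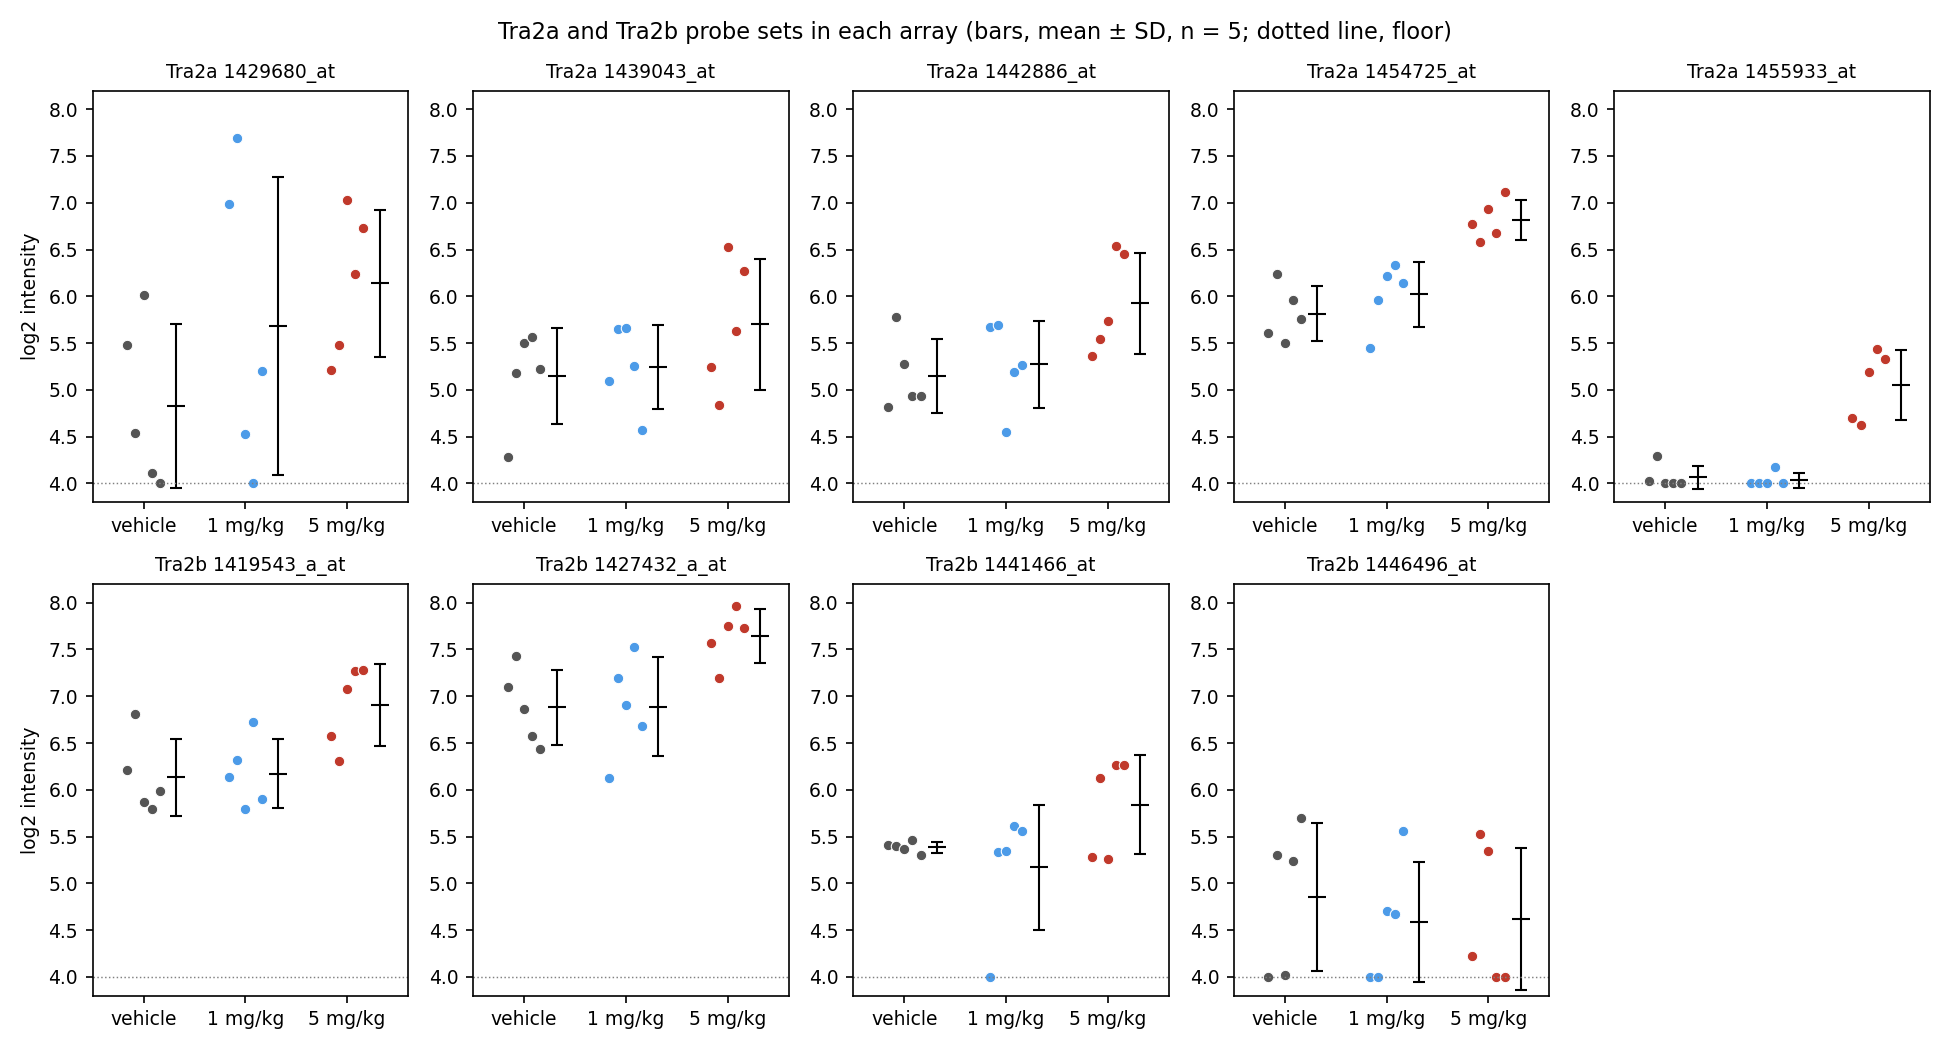
Log2 intensity (y axis) of the 5 tested Tra2a and 4 tested Tra2b probe sets on each array of the 3 groups (x axis), with the mean ± SD of 5 arrays beside the points and a dotted line at the floor of 4. For Tra2a 1454725_at and 1455933_at every 5 mg/kg array lies above every vehicle and 1 mg/kg array, while the Tra2b groups overlap.

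The SR proteins themselves had no called probe set. Srsf5, whose product activates splicing of exons with enhancers, has 1 tested probe set, and it gave 7.82, 8.53, 7.74, 7.63 and 7.44 in vehicle, 8.01, 8.10, 7.83, 7.89 and 7.45 at 1 mg/kg, and 8.32, 8.33, 8.62, 8.91 and 8.77 at 5 mg/kg. Only the vehicle replicate 2 value overlapped the 5 mg/kg range, and the difference was 0.76 ± 0.22 (SE, limma adjusted p 0.267). For Srsf6, another exon enhancer binder, 1448454_at gave 7.61, 8.44, 7.52, 7.60 and 7.53 in vehicle and 8.24, 7.94, 8.88, 8.88 and 8.87 at 5 mg/kg, a difference of 0.82 ± 0.25 (SE, limma adjusted p 0.305). Its probe set 1416720_at differed by -0.30 ± 0.30 and 1416721_s_at by 0.61 ± 0.24, so the probe sets of Srsf6 did not share a direction.

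Srsf1, the founding SR protein, had 6 probe sets with differences between 0.03 and 0.53 at 5 mg/kg, all above 0 and none called. Srsf2, the speckle-marking SC35, had 4 between 0.01 and 0.66. Srsf3, the smallest SR protein, ranged from -0.22 to 0.34 in 6 probe sets. Its 1438215_at separated the doses, with means of 5.77 ± 0.30 (SD, n = 5) in vehicle, 5.24 ± 0.37 in the low-dose group and 6.10 ± 0.27 in the high-dose group, and the 2 dose groups did not overlap. The differences were -0.52 ± 0.22 (SE) at 1 mg/kg and 0.86 ± 0.22 between the doses, with limma adjusted p of 0.831 and 0.364. Srsf9 (-0.34 ± 0.28) and Srsf4 (0.04 ± 0.20) have 1 probe set each, and Srsf10, a splicing repressor when dephosphorylated, ranged from -0.04 to 0.67 in 4.

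The hnRNP genes held the single gene whose probe sets moved apart beyond the test. Hnrnpa2b1 encodes hnRNP A2 and B1, which bind UAG-containing RNA and take part in splicing and RNA transport. Probe set 1433829_a_at gave 7.63, 7.89, 7.32, 7.48 and 7.13 in vehicle, 7.76, 7.96, 7.86, 8.30 and 7.25 at 1 mg/kg, and 8.26, 8.22, 8.66, 8.75 and 8.50 at 5 mg/kg. Probe set 1420365_a_at gave 7.60, 8.05, 7.68, 7.52 and 7.71 in vehicle, 7.32, 7.09, 7.13, 7.29 and 6.59 at 1 mg/kg, and 6.83, 6.73, 7.19, 7.02 and 6.64 at 5 mg/kg. In the first, all 5 mg/kg arrays exceeded all vehicle arrays, and in the second, all arrays of either dose lay below all vehicle arrays. The differences from vehicle at 5 mg/kg were 0.99 ± 0.21 (SE, limma adjusted p 0.101) and -0.83 ± 0.19 (limma adjusted p 0.127), and neither was called alone over all arrays. Both were called with a floor of 32 (adjusted p 0.0422 and 0.0471) and with array weights (0.0348 and 0.0418).

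The other 2 Hnrnpa2b1 probe sets sided with 1433829_a_at. Probe set 1434047_x_at gave 6.71, 7.01, 6.66, 6.51 and 6.63 in vehicle and 7.43, 7.44, 7.93, 7.79 and 7.70 at 5 mg/kg (0.95 ± 0.20, SE, limma adjusted p 0.0893), and was called with a floor of 32 (0.0343), with array weights (0.0244) and without replicate 4 of the 1 mg/kg group (0.0495). Probe set 1433830_at gave 6.12, 6.80, 6.76, 5.83 and 6.68 in vehicle and 7.25, 7.16, 7.32, 7.12 and 7.39 at 5 mg/kg (0.81 ± 0.23, SE, limma adjusted p 0.261). Neither overlapped its vehicle group. In the 1 mg/kg group 1433829_a_at, 1434047_x_at and 1433830_at differed by 0.34 ± 0.21, 0.28 ± 0.20 and -0.003 ± 0.23, and 1420365_a_at by -0.63 ± 0.19, with none called.

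A fit of the difference between 2 probe sets of a gene on the same array removes whatever moves both alike. For every gene with more than 1 tested probe set, each was set against the brightest, which gave 7213 pairs, of which 130 belong to members. At 5 mg/kg 1 pair was called in the whole table (0.0139%), and it was 1420365_a_at minus 1433829_a_at of Hnrnpa2b1. Its values were -0.03, 0.15, 0.36, 0.05 and 0.58 in vehicle, -0.44, -0.87, -0.73, -1.01 and -0.66 at 1 mg/kg, and -1.42, -1.49, -1.47, -1.73 and -1.86 at 5 mg/kg. No 2 of the 3 groups overlapped, and the values were lowest at the higher dose. The size of the offset itself depends on the probes, and only its change between groups can be read. That change was -1.82 ± 0.20 (SE) at 5 mg/kg, 3.52-fold, with a limma adjusted p of 9.1e-04. It was -0.97 ± 0.20 at 1 mg/kg (limma adjusted p 0.965) and -0.85 ± 0.20 between the doses (limma adjusted p 0.704), where no pair of any gene was called (0% in both comparisons). The call at 5 mg/kg remained when any 1 array was left out, with a limma adjusted p of 8.4e-04 to 0.00601, and ended when the 18S signal was added to the fit, where the change was -2.03 and the adjusted p 0.125. The transcripts that each probe set reads were not analysed here.

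**Figure D4:**
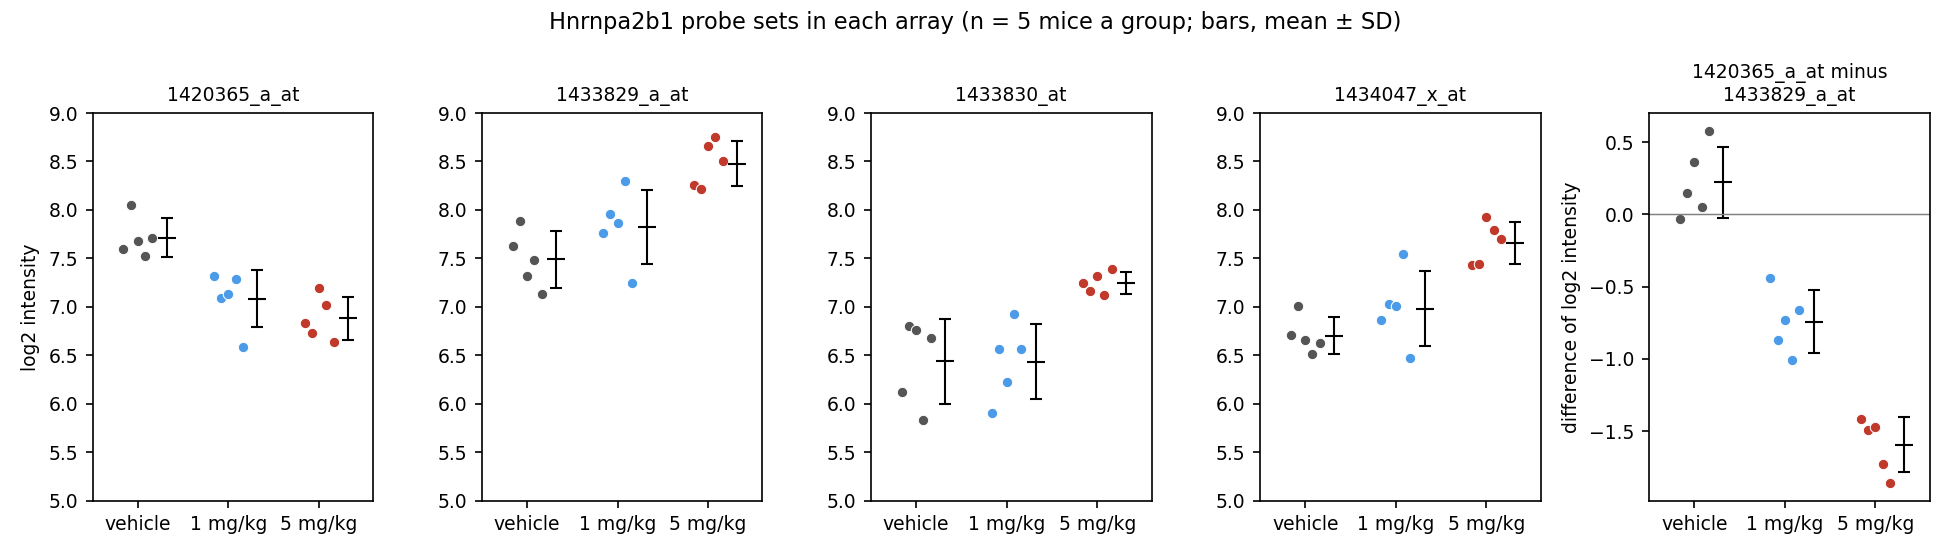
Log2 intensity of the 4 Hnrnpa2b1 probe sets on each array of the 3 groups (first 4 panels, shared y scale), and the difference of 1420365_a_at and 1433829_a_at on the same array (last panel), with the mean ± SD of 5 arrays beside the points. The difference has a mean of 0.22 in vehicle, -0.74 in the 1 mg/kg group and -1.60 in the 5 mg/kg group, with no overlap between groups.

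Other hnRNP genes shared one direction across their probe sets. Hnrnpdl, a relative of hnRNP D whose own splicing sets its amount, was higher at 5 mg/kg in 5 of 5 probe sets, by 0.38 to 0.84. Its probe set 1424252_at gave 6.63, 6.46, 6.64, 6.09 and 5.90 in vehicle, 6.87, 6.79, 6.32, 6.08 and 5.88 at 1 mg/kg, and 6.71, 7.01, 7.38, 7.45 and 7.35 at 5 mg/kg. The outer groups did not overlap, and the difference was 0.84 ± 0.24 (SE, limma adjusted p 0.261). Between the doses 1424251_a_at differed by 1.10 ± 0.24 (limma adjusted p 0.36). Hnrnpu, a nuclear matrix protein, was above vehicle in 5 of 5 probe sets (0.06 to 0.83) and Hnrnpf, a binder of G-runs, in 4 of 4 (0.22 to 0.47). Hnrnph1, its close relative, differed by 0.81 ± 0.28 and 0.39 ± 0.26, and Hnrnpab was above 0 in 4 of 5.

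A few hnRNP probe sets lay below vehicle. Hnrnpl, which binds CA repeats, gave 7.59, 7.55, 7.81, 7.63 and 7.77 in vehicle, 7.48, 7.45, 7.51, 7.34 and 7.81 at 1 mg/kg, and 7.47, 7.40, 7.04, 6.85 and 7.22 at 5 mg/kg. The 5 mg/kg arrays lay below all vehicle arrays, by -0.47 ± 0.17 (SE, limma adjusted p 0.413). Hnrnpd, the AU-rich element binder AUF1, differed by -0.65 ± 0.25 and -0.55 ± 0.35 in its 2 probe sets. Hnrnpll, the regulator of CD45 splicing in lymphocytes, exceeded the floor on 4, 0 and 2 arrays of the 3 groups (-0.31 ± 0.17 at 5 mg/kg). It could not have met the filter without its vehicle arrays, the group where it is highest, so its difference is given as a description. Hnrnpa1, an exon silencer binder, was split: 1436549_a_at differed by 0.28 ± 0.22, 1455305_x_at by -0.40 ± 0.24 and 1455740_at by -0.21 ± 0.28. For Hnrnpk, the poly(C) binder, 4 probe sets lay between -0.11 and 0.22, and for Hnrnpr 3 lay between -0.35 and 0.14. The hnRNP probe sets of smallest p at 1 mg/kg, beside 1420365_a_at, were Hnrnpa1 1455305_x_at (-0.56 ± 0.24) and Hnrnpr 1437526_x_at and 1427129_a_at (-0.48 ± 0.23 and -0.42 ± 0.21), with limma adjusted p of 0.846, 0.866 and 0.871.

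The 3' splice site factors differed little from vehicle. Sf3b1, the branch point clamp of the U2 particle, had differences of 0.31 ± 0.23, 0.28 ± 0.25, 0.17 ± 0.22 and -0.27 ± 0.22 (SE) in its 4 probe sets at 5 mg/kg. Sf3a1, which joins SF3A to the U1 and U2 particles, had 0.43 ± 0.33 and -0.25 ± 0.31. Its weaker probe set 1446687_at was above the floor on 3 vehicle, 5 low-dose and 4 high-dose arrays, and differed by 0.84 ± 0.33 at 1 mg/kg (limma adjusted p 0.831). U2af1 and U2af2, which together read the polypyrimidine tract and the terminal AG, differed by -0.15 ± 0.21 and 0.23 ± 0.22 in 1 probe set each. All 3 probe sets of Sf3b6, which contacts the branch point, were above 0, by 0.14 to 0.73. Between the doses, 3 of the 25 probe sets of this group were higher at an unadjusted p under 0.05 (12%, background 6.19%). Of these, 2 were probe sets of Sf3b1 (0.60 ± 0.23 and 0.64 ± 0.25).

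The Sm and snRNP genes were evenly split at 5 mg/kg, with 8 of 16 probe sets above 0. Snrpb, the core Sm protein B, differed by -0.45 ± 0.24 and 0.14 ± 0.31 (SE). Snrpn, the imprinted Sm N protein of brain, differed by 0.07 ± 0.52 in the 1 probe set that names it alone. Snrpg, a core ring protein, lay above vehicle in both (0.56 ± 0.38 and 0.35 ± 0.27), Snrpb2 below in both (-0.13 ± 0.20 and -0.25 ± 0.26), and Snrpe, also of the ring, differed by -0.02 ± 0.28 at 5 mg/kg and -0.52 ± 0.28 at 1 mg/kg. Limma called none in any comparison. Between the doses, 2 of the 16 were higher at an unadjusted p under 0.05 (12.5%, background 6.19%), both of Snrpg.

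Among the PRPF genes, a probe set of Prpf4b had the smallest p at 5 mg/kg. Prpf4b encodes a kinase that acts on spliceosomal proteins before activation, and all 6 of its probe sets were above vehicle at 5 mg/kg, by 0.09 to 0.85. Probe set 1455696_a_at gave 5.70, 5.93, 5.82, 5.24 and 5.28 in vehicle, 5.02, 5.59, 5.80, 5.94 and 4.77 at 1 mg/kg, and 5.98, 6.40, 6.48, 6.71 and 6.66 at 5 mg/kg. Every 5 mg/kg array exceeded every other array, with differences of 0.85 ± 0.25 (SE, limma adjusted p 0.273) from vehicle and 1.02 ± 0.25 (limma adjusted p 0.364) from 1 mg/kg. Prpf6, which bridges the particles of the tri-snRNP, had the largest difference in the family, 1.24 ± 0.81 for 1426026_at (limma adjusted p 0.778), beside 0.05 ± 0.33 and -0.17 ± 0.22. Prpf38b, which assists activation, was divided, with 0.73 ± 0.21 (1455016_at), 0.42 ± 0.45 and -0.76 ± 0.43. Prpf8, the large protein at the catalytic centre, differed by -0.17 ± 0.33, and Prpf31, which holds the U4/U6 and U5 particles together, by -0.32 ± 0.27 near the floor. Prpf39, a U1-associated protein, gave 0.66 ± 0.29 for 1428171_at, whose 5 mg/kg arrays did not overlap those at 1 mg/kg, beside 0.06 ± 0.25 and -0.05 ± 0.33. Prpf38a differed by 0.60 ± 0.28 at 1 mg/kg and -0.04 ± 0.28 at 5 mg/kg.

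The numbered RBM genes were the largest group, with 37 of 67 probe sets above 0 at 5 mg/kg. Rbm25, which promotes use of upstream 5' splice sites, was above vehicle in 3 of 3 probe sets. Probe set 1437862_at gave 6.17, 6.48, 6.20, 6.11 and 6.14 in vehicle, 5.65, 6.45, 5.97, 6.40 and 5.45 at 1 mg/kg, and 6.71, 6.64, 6.94, 7.23 and 6.91 at 5 mg/kg. The 5 mg/kg arrays did not overlap either group, at 0.67 ± 0.21 (SE, limma adjusted p 0.326) from vehicle and 0.90 ± 0.21 (limma adjusted p 0.36) from 1 mg/kg. Rbm39, the U2AF-related factor that aryl sulfonamides degrade, had 10 probe sets, 9 of them above 0 at 5 mg/kg, the largest difference being 0.63 ± 0.31. Its 1438420_at differed by -0.68 ± 0.26 at 1 mg/kg and 0.15 ± 0.26 at 5 mg/kg (limma adjusted p 0.824 and 0.939). Rbm5, a regulator of apoptosis gene splicing, was above 0 in 3 of 3 (0.19 to 0.42).

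Rbm14, a paraspeckle protein, ranged furthest among the RBM genes. Its 1436979_x_at gave 5.35, 4.58, 6.17, 4.00 and 4.51 in vehicle, 4.00, 6.02, 5.47, 5.26 and 4.12 at 1 mg/kg, and 6.41, 6.47, 6.20, 6.09 and 6.02 at 5 mg/kg. The vehicle arrays ran from 4.00 to 6.17 and the 5 mg/kg arrays from 6.02 to 6.47, so they overlapped through vehicle replicate 3, with a difference of 1.31 ± 0.41 (SE, limma adjusted p 0.326). Its other probe sets differed by 0.78 ± 0.29 (1456566_x_at, whose 5 mg/kg arrays overlapped neither other group), 0.22 ± 0.21 and -0.04 ± 0.21. Rbm33 was divided too, at 0.76 ± 0.22 (1435391_at, limma adjusted p 0.274), -0.04 ± 0.28 and -0.37 ± 0.28. Below vehicle lay Rbm47 (-0.63 ± 0.27 and -0.16 ± 0.22) and Rbm15b (-0.66 ± 0.27 and -0.26 ± 0.30). The RBM probe sets of smallest p at 1 mg/kg were Rbm12 1416928_at (-0.61 ± 0.19, limma adjusted p 0.717), Rbm39 1438420_at and Rbm18 1458182_at (0.95 ± 0.40, limma adjusted p 0.846).

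Agreement among the probe sets of a gene was counted over the 56 member genes with 2 or more tested probe sets. At 5 mg/kg all probe sets had the same sign in 29 of them (51.8%), against 51.2% of 4637 genes in the table. With exactly 2 probe sets the shares were 16 of 21 members (76.2%) and 58.7% of all genes, with 3 they were 4 of 15 (26.7%) and 41.5%, and with 4 or more 9 of 20 (45%) and 31.6%. The median distance between the highest and the lowest log2 fold change of a gene was 0.54 for members and 0.35 for all genes. By number of probe sets, it was 0.15 and 0.27 with 2, 0.63 and 0.43 with 3, and 0.63 and 0.60 with 4 or more. The pooled values therefore partly reflect how many probe sets a gene has. For 1 mg/kg against vehicle the members shared a sign in 18 of 56 genes (32.1%, all genes 48.0%), and between the doses in 35 of 56 (62.5%, all genes 51.4%). Members have more probe sets per gene than most genes, and no test was made of these shares.

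The widest spreads at 5 mg/kg were those of Hnrnpa2b1 (1.82), Prpf38b (1.49), Prpf6 (1.42), Rbm14 (1.36), Rbm33 (1.13) and Srsf6 (1.12). In the fit of differences, 10 of the 130 member pairs had an unadjusted p under 0.05 at 5 mg/kg (7.69%, background 5.73%), 4 at 1 mg/kg (3.08%, background 5.03%) and 11 between the doses (8.46%, background 6.35%), shares close to the background. After Hnrnpa2b1, the member pairs of smallest p at 5 mg/kg were Srsf6 1448454_at minus 1416720_at (1.12 ± 0.38, SE), Prpf4b 1455696_a_at minus 1425498_at (0.71 ± 0.25), Rbm14 1436979_x_at minus 1450569_a_at (1.36 ± 0.47) and Hnrnpa1 1455305_x_at minus 1436549_a_at (-0.68 ± 0.25), each with a limma adjusted p of 0.705 or 0.777. Again after Hnrnpa2b1, those at 1 mg/kg were the Hnrnpa1 pair (-0.60 ± 0.25) and pairs of Sf3a1 (0.93), Rbm39 (0.67) and Prpf4 (-0.74), none called.

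**Figure D5:**
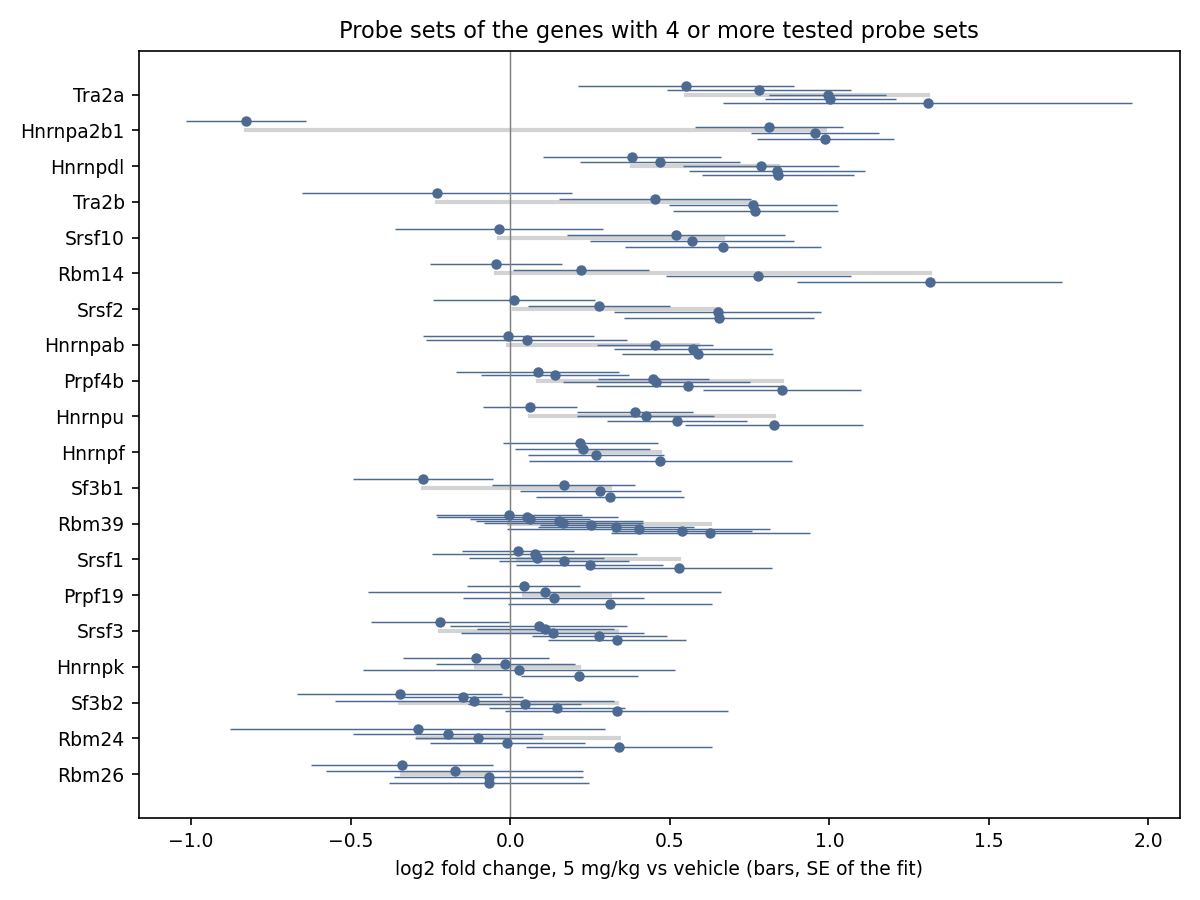
Log2 fold change at 5 mg/kg against vehicle (x axis, with the SE of the fit) of every tested probe set of the 20 member genes with 4 or more tested probe sets (y axis, ordered by their median), with a grey line from the lowest to the highest. All probe sets of Tra2a, Hnrnpdl and Prpf4b lie above 0, while the Hnrnpa2b1 probe sets run from -0.83 to 0.99.

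Splicing genes outside the name rule were taken from 11 lists of 127 genes, of which 116 were on the array. Of these, 102 were tested, each by its brightest tested probe set. Limma called none in any comparison. At an unadjusted p under 0.05, 13 were higher (12.7%, background 4.27%) and 0 lower (background 3.69%) at 5 mg/kg, with a median of 0.16. The counts at 1 mg/kg were 1 higher (0.980%, background 2.04%) and 7 lower (6.86%, background 3.77%), with a median of -0.07. Between the doses 20 were higher (19.6%, background 6.19%) and 0 lower (background 2.47%), with a median of 0.26. These backgrounds cover all tested probe sets. In the fit with 1 probe set per gene, the higher and lower backgrounds were 3.51% and 4.26% at 5 mg/kg. They were 1.98% and 4.065% at 1 mg/kg, and 5.26% and 2.635% between the doses. The kinases and phosphatase partners of SR proteins had 8 of 9 above vehicle at 5 mg/kg, led by Clk1, an SR protein kinase (0.95 ± 0.25, SE, limma adjusted p 0.206), and Clk4 (0.49 ± 0.27). Nuclear speckle and SR-related genes had 11 of 13 above 0, led by the speckle RNA Malat1 (0.92 ± 0.27, limma adjusted p 0.292) and Srrm2 (0.64 ± 0.26). Helicases of the spliceosome had 3 of 6, with Ddx5 at 0.84 ± 0.20 (limma adjusted p 0.158) and Ddx39b at 0.43 ± 0.19.

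The remaining lists gave the following leading genes at 5 mg/kg. The paraspeckle and FET proteins had 6 of 7 above 0, led by Taf15 (0.87 ± 0.28, SE) and Nono (0.28 ± 0.21). Sequence-specific regulators had 10 of 21, led by Khdrbs1 (0.84 ± 0.24), the signal-regulated SAM68, and Qk (0.74 ± 0.28). Partners at the branch point had 7 of 10, led by Sf1 (0.55 ± 0.24) and Ddx46 (0.68 ± 0.35), and second-step factors 10 of 14, led by Crnkl1 (0.63 ± 0.24) and Bud31 (0.53 ± 0.24). The Snrnp genes had 7 of 10 above 0 (Sart1 0.47 ± 0.21, Usp39 0.29 ± 0.19), the SMN complex 3 of 3 (Strap 0.55 ± 0.36, Gemin7 0.06 ± 0.17) and the exon junction complex 2 of 2 (Acin1 0.16 ± 0.16, Rnps1 0.20 ± 0.26). The LSm proteins had 2 of 7 above 0, with Lsm2 at -0.38 ± 0.29 and Lsm10 at -0.32 ± 0.25.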

How the data were processed

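Total RNA from whole blood was labelled from 200 ng with an Affymetrix 3' kit, per the labels' protocols. The authors deposited 1 linear intensity per probe set and array (45101 probe sets). The summarisation and scaling behind it are not given in the sources used here. From these intensities, 64 control probe sets were set aside, the rest were quantile normalised, raised to a floor of 16 and put on the log2 scale. Probe sets above the floor on at least 5 arrays were fitted as 3 group means with limma 3.58.1 under R 4.3.3, with moderated variances and Benjamini-Hochberg adjustment over the 24273 tested. The same fit was made on differences between probe sets of a gene. Both were tested on simulated data. Symbols came from the platform annotation: 34945 probe sets name 1 gene, 932 several and 9160 none here. Promoters were matched by symbol for 86 of 100 genes. Mice are the replicates, and 5 arrays per group limit the precision. Median array intensity ran from 3.61 to 25.4. Named were the members called, those of smallest p per comparison and a fixed list of well-known factors. Members and lists were chosen with earlier results of these data known. Alternatives covered scaling, floor, filter, probe set choice, array weights, the replicate number, the 18S signal and left-out arrays. Figures used matplotlib 3.10.9.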

Additional observations from a re-analysis of the deposited data

Results flagged for a closer look

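A single array stood apart from the other 4 of its group in 7 of the 117 groups of 5 examined, where chance alone gives about 1 in 20. Vehicle replicate 2 was the high array in 5 of them: Tra2a 1455933_at at a log2 intensity of 4.29 (the others 4.00 to 4.03), Rbm25 1437862_at at 6.48 (6.11 to 6.20), the mean over all members at 6.17 (5.80 to 5.90), the mean of SF3A, SF3B and U2AF at 6.53 (6.06 to 6.11) and the mean of the Sm and snRNP genes at 5.97 (5.73 to 5.79). In the 1 mg/kg group, replicate 4 was the high array for Tra2a 1455933_at at 4.18, where the others lay at the floor of 4.00, and replicate 5 was the low array for the mean of the Sm and snRNP genes at 5.38 (5.70 to 5.79). Both flags of Tra2a 1455933_at rest on values held at the floor, so they cannot be set against the rate of 1 in 20. Without vehicle replicate 2 the median log2 fold change of the members at 5 mg/kg was 0.20, against 0.13 with it.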

How the results depend on the processing

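The results were recomputed under up to 30 alternatives (26 to 30 for each result, since some leave a probe set or pair untested), 2 of them added after the data were seen. At 5 mg/kg the count of called members, 1 in the report, was 0 with no scaling between arrays, a floor of 8, all 15 arrays above the floor, 1 probe set per gene, without _x_at, _s_at and _a_at probe sets, with the 18S signal as a covariate, with only the 2 groups compared, and, as added, minus the 2 arrays of lowest median intensity or minus the 2 vehicle arrays of highest 18S signal. It was 4 with a floor of 32 (Tra2a 1454725_at and Hnrnpa2b1 1434047_x_at, 1433829_a_at and 1420365_a_at), 5 with array weights (those and Tra2a 1455933_at), and ran from 0 to 2 when 1 array was left out (0 in 11 of 15 fits). With a replicate block it was 0 as well (Tra2a 1455933_at, adjusted p 0.151), while the Hnrnpa2b1 difference kept its call (limma adjusted p 0.0237). Samples of the same number did not deviate together (correlations from -0.271 to 0.324 over 15 pairs, and from -0.341 to 0.351 over 60 pairs of other numbers). Correlations alone cannot show whether the numbers pair the mice, and the sample titles give only a number. The called probe set difference was lost (0) with the 18S covariate alone, of the 28 alternatives that give it. The members' median of 0.13 was 0.27 with no scaling (0.12 for all tested probe sets), 0.30 with the 18S covariate and 0.26 without the 2 vehicle arrays. It was 0.05 with 1 probe set per gene, where 49 of 89 members lay above 0, 0.07 without the suffixed probe sets, 0.09 with a filter of 1 array above the floor, and 0.07 to 0.20 with 1 array left out. The median at 1 mg/kg, -0.11, was -0.03 without the 2 vehicle arrays, -0.04 without the suffixed probe sets and -0.05 with the 18S covariate. The count of all called probe sets, 33, was 4 with no scaling, 0 with the 18S covariate, 73 with a floor of 32, 95 with array weights, 11 with 1 probe set per gene, 15 without the suffixed probe sets and 7 without those vehicle arrays. At 1 mg/kg that count, 2, was 10 with a floor of 32, and between the doses, 0, it was 1 with a floor of 8 or array weights. Members higher at an unadjusted p under 0.05 numbered 35 and ran from 11 to 45, and their share ran from 5.51% to 20.8%, against 1.81% to 5.92% of all tested probe sets. At 1 mg/kg and between the doses the count of called members and of called member pairs was 0 in every alternative run. Of 38 named differences, 1 changed direction: Tra2a 1439043_at, 0.55, was -0.066 with the 18S covariate. Values near the floor limit what can be read of weak probe sets.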
